A study of Mus musculus with 6 samples.

Results

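Small nucleolar RNAs (snoRNAs), small Cajal body RNAs and the RNA subunits of 3 enzymes were followed in sorted double positive (DP) thymocytes of control mice and of mice with a conditional knockout of *Nsrp1*, the gene of the splicing factor NSrp70. The members were the gene rows whose symbol begins with Snora, Snord or Scarna, together with *Rmrp*, *Rpph1* and *Terc*, and they were kept when at least 1 library had a value above 0. Of 23183 gene rows, 122 matched the symbols and 36 were kept, namely 9 of 74 Snord rows, 22 of 36 Snora rows, 2 of 9 Scarna rows and all 3 of the others. The table held no row named *Rn7sk*. The mice were C57BL/6 animals of 6 weeks, and every mouse carried the floxed *Nsrp1* allele (Nsrp1f/f). The control group (WT) was Nsrp1f/f without Cre, and the knockout group (cKO) was Nsrp1f/fCD4Cre, in which Cre under *Cd4* regulatory elements removes *Nsrp1* in developing T cells. Each group had 3 libraries. The labels do not say whether the libraries came from separate mice, so the p-values measure the spread between these samples, which may be technical.

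Most snoRNAs are cut from the introns of other genes and guide the chemical modification of ribosomal RNA inside protein particles, the box C/D class directing methylation of the ribose and the box H/ACA class directing the conversion of uridine to pseudouridine. Small Cajal body RNAs guide the same changes on spliceosomal RNAs. *Rmrp* is the RNA of RNase MRP, which cleaves precursor ribosomal RNA, *Rpph1* is the RNA of RNase P, which trims the leader of transfer RNAs, and *Terc* is the template RNA of telomerase. These RNAs do not carry the long poly(A) tail by which mRNAs are selected, and the libraries were enriched for poly(A) RNA, so each value is the amount that passed this step and was recovered, not the amount in the cell.

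The sequences of the RNAs on which the results turn were taken from the GENCODE transcripts on GRCm38 (mm10). *Rmrp* (chr4:43492788-43493058, minus strand) and *Rpph1* (chr14:50807449-50807767, minus strand, bases 1 to 300 of 319) are genes of their own and are shown because their values appeared to rest on the most fragments. No base is marked in these 2.
Rmrp: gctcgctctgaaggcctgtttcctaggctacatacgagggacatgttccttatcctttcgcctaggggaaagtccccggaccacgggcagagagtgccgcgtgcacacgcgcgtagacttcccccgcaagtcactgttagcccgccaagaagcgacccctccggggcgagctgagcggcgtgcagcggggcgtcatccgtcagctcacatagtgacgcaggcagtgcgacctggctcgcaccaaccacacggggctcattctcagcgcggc
Rpph1: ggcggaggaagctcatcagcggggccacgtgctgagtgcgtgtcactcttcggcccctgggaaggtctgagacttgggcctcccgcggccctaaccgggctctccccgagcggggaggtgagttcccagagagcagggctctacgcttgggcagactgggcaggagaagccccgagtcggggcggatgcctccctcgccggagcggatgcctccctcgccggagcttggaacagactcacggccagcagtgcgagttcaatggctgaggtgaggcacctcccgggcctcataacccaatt

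Of the box C/D class, *Snord22* (chr19:8725866-8725991, plus strand, in an intron of *Snhg1*) was higher in cKO, *Snord15b* (chr7:99479563-99479707, minus strand, in an intron of *Rps3*) had separate groups, and *Snord47* (chr1:161038082-161038158, plus strand, within *Gas5*) gave the highest value of all members. Capitals mark TGATGA, the letters of box C, and CTGA, those of box D, wherever they occurred on the transcript strand.
Snord22: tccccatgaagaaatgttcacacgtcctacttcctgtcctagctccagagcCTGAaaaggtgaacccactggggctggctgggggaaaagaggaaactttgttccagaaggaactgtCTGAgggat
Snord15b: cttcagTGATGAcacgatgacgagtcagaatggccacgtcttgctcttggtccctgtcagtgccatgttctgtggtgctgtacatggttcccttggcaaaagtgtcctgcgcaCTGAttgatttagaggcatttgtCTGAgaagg
Snord47: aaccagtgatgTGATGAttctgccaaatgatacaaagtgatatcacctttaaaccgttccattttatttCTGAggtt
TGATGA stood at base 7 of *Snord15b* and at base 12 of *Snord47* and was not found in *Snord22*, while the last CTGA began at base 118 of 126, 137 of 145 and 70 of 77, respectively. Over 98 Snord transcripts of the annotation, 71.4% held TGATGA in the first 20 bases and 98% held CTGA in the last 20.

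The other 3 sequences are *Scarna13* (chr12:105031075-105031349, minus strand, within *Snhg10*), *Snora64* (chr17:24720772-24720905, plus strand, within *Rps2*) and the first 65 bases of *Terc* (chr3:96414437-96414859, minus strand). They are shown because *Scarna13* and *Terc* were called higher and *Snora64* lower in cKO. Capitals mark ACA placed 3 bases before the end of *Snora64*, a position that 83.3% of 42 Snora transcripts shared, and CTAACCC, the telomere template, in *Terc*. No base is marked in *Scarna13*.
Scarna13: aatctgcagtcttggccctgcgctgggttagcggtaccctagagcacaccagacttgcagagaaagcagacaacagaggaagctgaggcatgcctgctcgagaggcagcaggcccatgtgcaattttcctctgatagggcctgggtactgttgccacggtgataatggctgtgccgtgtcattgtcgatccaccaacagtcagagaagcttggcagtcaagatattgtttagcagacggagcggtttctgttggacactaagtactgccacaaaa
Snora64: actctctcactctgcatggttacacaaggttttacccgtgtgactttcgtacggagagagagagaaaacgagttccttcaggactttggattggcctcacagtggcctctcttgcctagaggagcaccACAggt
Terc: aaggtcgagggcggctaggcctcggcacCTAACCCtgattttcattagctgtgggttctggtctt

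The authors deposited FPKM values (fragments per kilobase of transcript, scaled by the library's mapped fragments). From these values the depth was estimated here as 20.7 to 20.8 M fragments in WT (M, mega). In cKO 1, 2 and 3 the estimates were 13.16, 20.68 and 17.4 M. The search covered a limited range of depths. The paper reports a larger figure, given in paired-end reads, and the reason for the difference was not tested. The median SD of log2(FPKM + 1) over all tested genes was 0.0443 among the WT libraries and 0.156 among the cKO libraries. Because WT varied so little, a fit in which the WT libraries were averaged and counted as 1 sample is given where it ended a call, for the lists and hosts as counts. *Nsrp1*, listed under its older symbol *Ccdc55*, had an FPKM of 20.2, 20.7 and 21.1 in WT and of 17.7, 15.8 and 15.0 in cKO, all cKO values below all WT values (log2 difference -0.34, adjusted p = 0.00675 from limma, or 0.184 with WT counted as 1 sample). Genotype also ran with sex. *Xist* lay between 69.8 and 72.0 in WT and between 4.07 and 5.44 in cKO, and 4 genes of chromosome Y were listed at 0 in WT and at 5.83 to 43.8 in cKO. The ribosomal precursor *Rn45s* was at 6028 to 6118 in WT and was listed at 0 in every cKO library. Genotype, sex and whatever set the *Rn45s* difference cannot be told apart in any comparison of the 2 groups.

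Few snoRNAs were listed, and their values depended on length. Of the 36 members, 8 were above 0 in all 6 libraries, 14 in 2 to 5 libraries and 14 in a single library, 6 of these in WT and 8 in cKO. The other 86 rows of the rule were at 0 in every library. By library, 16, 14 and 19 members were above 0 in WT 1, 2 and 3 and 20, 22 and 14 in cKO 1, 2 and 3. These counts overlapped between the genotypes. Of the rows with a RefSeq length, 30 of 45 at 100 nucleotides or longer were detected against 6 of 76 shorter ones, and the median length was 127 nucleotides for the members and 68 for the rows at 0. Length counted within the classes too. Of the box C/D rows, 4 of 5 at 100 nucleotides or longer were detected and 5 of 68 shorter ones, and of the box H/ACA rows 21 of 32 and 1 of 4.

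The lowest listed value fell steeply with length. It was 11616 for *Snord47* (65 nucleotides), 648 for *Snora5c* (101 nucleotides), 29.1 for *Snord22* (126 nucleotides), 11.9 for *Snord15b* (145 nucleotides), 1.42 for *Scarna13* (275 nucleotides) and 0.826 for *Terc* (397 nucleotides). *Snora26*, of 121 nucleotides, was an exception at 2.03. *Snora15* and *Snora75*, both of 116 nucleotides, had the same value of 59.1 in cKO 2 to every digit deposited. Values of short RNAs thus moved in large steps, and the value of 1699 for *Snord32a* (81 nucleotides) in WT 3 was the only one listed for it.

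**Figure D1:**
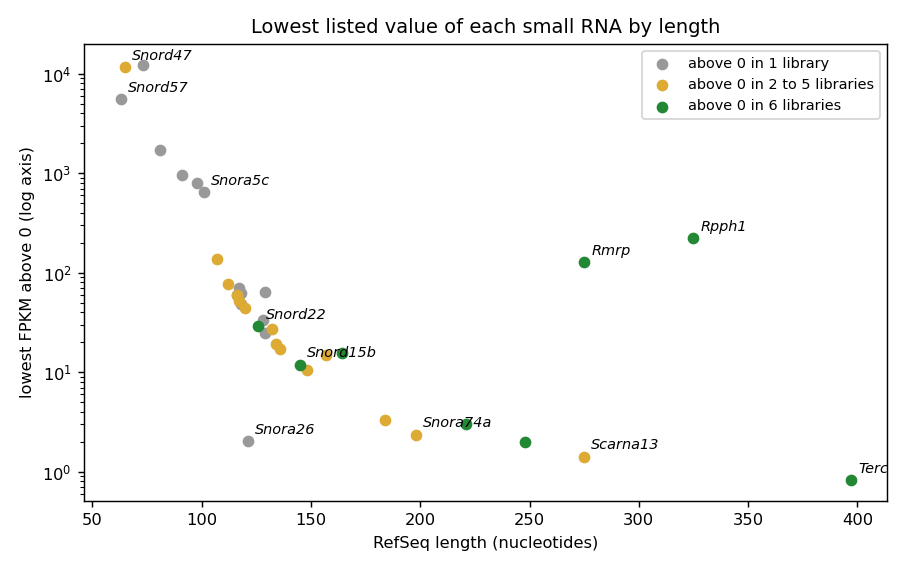
Each point is 1 of the 36 small RNAs, with its RefSeq length in nucleotides on the x axis and its lowest FPKM above 0 on a log y axis, coloured by the number of libraries in which it was above 0. The lowest value fell from 11616 for Snord47 to 0.826 for Terc, and Rmrp and Rpph1 lay well above the other RNAs of their length.

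To set the members on a common scale, each FPKM was multiplied by the estimated depth and divided by the same product at the member's lowest listed value. In 23 members, the 14 seen in a single library among them, this multiple never reached 2.5, and in 13 members it did. The lowest value may stand for more or for less than 1 fragment, so the multiples are not counts of fragments. They also carry the error of the depth estimate. For *Rmrp* and *Rpph1* in particular the lowest value was far above 1 step. *Scarna13* has the RefSeq length of *Rmrp*, 275 nucleotides, and *Rmrp* stood at 60.3 and 93.5 times *Scarna13* in WT 1 and WT 3, the WT libraries that list it, and at 194, 71.4 and 75.5 times in cKO 1, 2 and 3. If *Scarna13* had at least 1 fragment where it was listed, *Rmrp* had at least about as many fragments as these ratios.

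**Figure D2:**
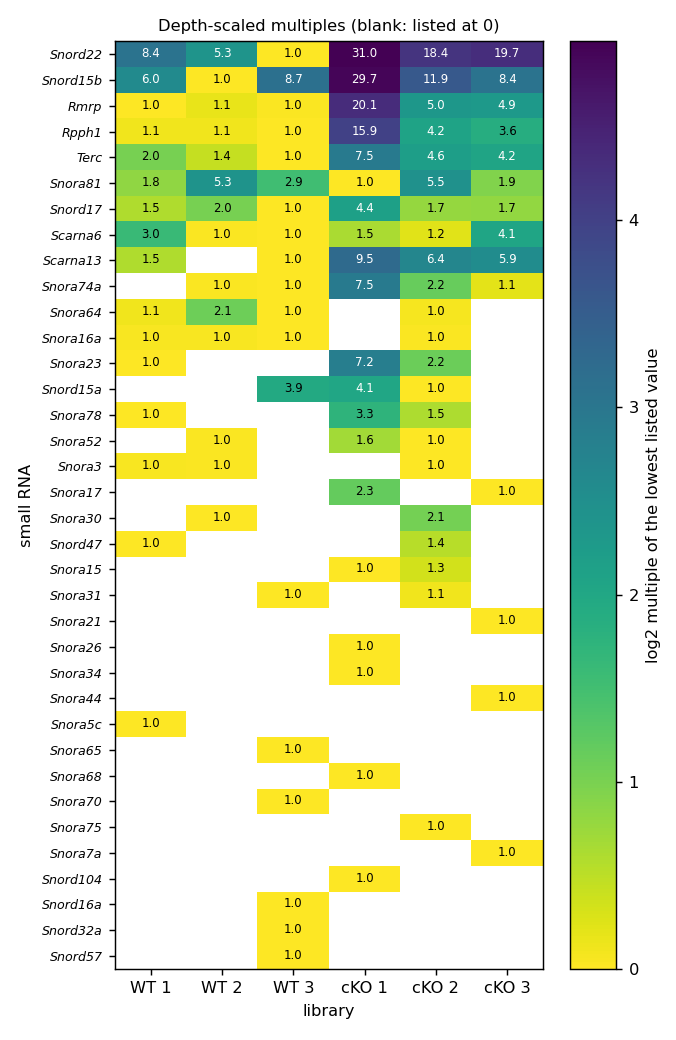
The grid has 1 row for each of the 36 small RNAs and 1 column for each library, and the number and colour (log2 scale) give the depth-scaled multiple of that RNA's own lowest listed value. Blank cells are values of 0, and the lower rows hold the 14 RNAs listed in a single library.

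In 3 of the 6 libraries 1 short RNA made up most of the summed level of the members. The members held 2.47%, 0.182% and 1.70% of the FPKM total in WT 1, 2 and 3 and 3.20%, 2.84% and 0.326% in cKO 1, 2 and 3, and the groups overlapped. The FPKM total itself did not overlap, at 521296 to 531517 in WT and 701396 to 850548 in cKO. *Snord47*, which guides ribose methylation and whose host is the noncoding gene *Gas5*, was at 11616 in WT 1 and at 16873 in cKO 2 and at 0 in the other 4 libraries. It made up 88.6% of the members' sum in WT 1 and 84.8% in cKO 2, at depth-scaled multiples of 1.0 and 1.4. *Snord57* in WT 3 (61.7% of the sum) and *Snord104* in cKO 1 (48.5%) were listed in no other library. In WT 2 and cKO 3, where no such RNA was listed, *Rpph1* was the largest member. The mean share was 1.45% in WT and 2.12% in cKO, or 1.38% and 1.57% without *Rmrp* and *Rpph1*.

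*Rmrp* and *Rpph1*, the RNAs of the 2 processing enzymes, were several-fold higher in cKO. *Rmrp* had an FPKM of 129, 145 and 133 in WT 1, 2 and 3 and of 4094, 653 and 749 in cKO 1, 2 and 3. *Rpph1* had 240, 242 and 224 in WT and 5606, 945 and 968 in cKO. Every cKO value lay above every WT value for both, and cKO 1 stood far above the other 2 cKO libraries. Relative to the WT mean, *Rmrp* was 30.2-fold in cKO 1 and 4.82- and 5.53-fold in cKO 2 and 3, and *Rpph1* was 23.8-fold and 4.02- and 4.12-fold. The pair together made up 0.0675% to 0.0742% of the FPKM total in WT, 1.23% in cKO 1, and 0.228% and 0.202% in cKO 2 and 3.

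In the limma fit over 10326 genes, with p-values adjusted by the Benjamini-Hochberg method, the log2 difference on the log2(FPKM + 1) scale (cKO minus WT) was 3.21 for *Rmrp* (SE 0.65, adjusted p = 0.00415) and 2.87 for *Rpph1* (SE 0.65, adjusted p = 0.0067). Without cKO 1, the difference of *Rmrp* was 2.36 (adjusted p = 0.000322) and that of *Rpph1* 2.02 (adjusted p = 0.000322). With WT counted as 1 sample, the adjusted p from limma was 0.0644 for *Rmrp* and 0.0822 for *Rpph1*, and neither was called. Each gene has a neighbour that starts close by on the opposite strand, and the libraries were made with a directional kit, but whether the authors counted fragments by strand is not stated. *Ccdc107*, which starts 158 nucleotides from *Rmrp*, had 31.4, 34.8 and 31.8 in WT and 37.5, 28.4 and 30.8 in cKO, which overlapped. *Parp2*, a repair enzyme that starts 74 nucleotides from *Rpph1*, had 14.7, 16.6 and 14.2 in WT and 21.2, 24.3 and 19.0 in cKO. Its groups did not overlap, and it was called higher (log2 difference 0.47, adjusted p = 0.00535 from limma). With WT counted as 1 sample its difference was 0.47, which was not called. The highest library of *Parp2* was cKO 2, not cKO 1. The part of either neighbour in the values of *Rmrp* and *Rpph1* was not tested.

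Of all members, 17 passed the filter of an FPKM of at least 1 in 3 or more libraries, and 19 were not tested. Of the 17, 5 were higher in cKO, where 35.8% of all genes tested were called higher, and 2 were lower, where 29.8% of all genes were. The 3 cKO values lay above the 3 WT values in 7 of the 17 members and in 39.2% of all genes, and they lay below in 0 of the 17 members and in 33.3% of all genes. Of 17 members, 5 and 2 are smaller shares than the 2 backgrounds of calls, and 7 is a share near the background of separate groups. Their sizes differed, with a median log2 difference of 1.87 over the 17 members against 0.039 over all genes, but the filter keeps a member that is high in 1 group only. With WT counted as 1 sample, 2 members were called higher, and 7.16% of all genes were. In each of the 7 members with separate groups, cKO 1 was the highest library.

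**Figure D3:**
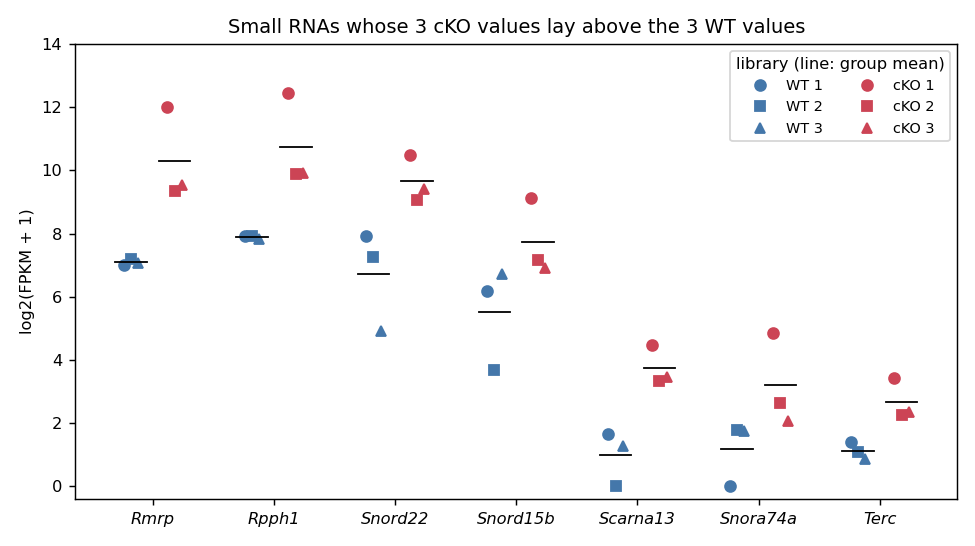
Points give log2(FPKM + 1) of each library for the 7 small RNAs whose 3 cKO values lay above the 3 WT values, and lines give the mean of 3 libraries. Rmrp and Rpph1 vary little among the WT libraries, and cKO 1 is the highest point for every RNA shown.

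Among the box C/D RNAs, *Snord22* was higher in cKO. It had an FPKM of 244, 153 and 29.1 in WT and of 1422, 538 and 682 in cKO, at depth-scaled multiples of 8.4, 5.3 and 1.0 in WT and of 31.0, 18.4 and 19.7 in cKO. The groups did not overlap, although WT 3 was far below the other WT libraries. The log2 difference was 2.95 (SE 0.77, adjusted p = 0.012 from limma). It remained called without cKO 1 (2.54, adjusted p = 0.0458) and with WT counted as 1 sample (2.49, adjusted p = 0.0362).

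*Snord15b*, which lies with *Snord15a* in introns of the ribosomal protein gene *Rps3*, had 70.8, 11.9 and 104 in WT and 558, 142 and 119 in cKO. The groups were separate, but WT 3 and cKO 3 lay close together, and the test missed the threshold (log2 difference 2.21, SE 0.88, adjusted p = 0.0602 from limma). *Snord15a* itself was listed in WT 3 at 40.8, in cKO 1 at 67.2 and in cKO 2 at 10.5 and overlapped between the groups (adjusted p = 0.536 from limma). *Snord17* had 4.54, 6.13 and 3.01 in WT and 21.02, 5.19 and 6.26 in cKO. Only cKO 1 stood apart, and the difference of 0.88 was not called (adjusted p = 0.142 from limma). The 5 other box C/D members were at 0 in at least 4 libraries and were not tested.

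Among the box H/ACA RNAs, the direction was mixed and the levels low. *Snora64*, whose host is the ribosomal protein gene *Rps2*, was at 55.8, 111 and 52.1 in WT and at 0, 54.7 and 0 in cKO, or at multiples of 1.1, 2.1 and 1.0 in WT and of 1.0 in cKO 2. *Snora16a* was at 17.8, 17.9 and 17.2 in WT and at 0, 17.6 and 0 in cKO, every listed value at a multiple of 1.0. Both were called lower, with a log2 difference of -4.19 for *Snora64* (SE 1.48, adjusted p = 0.0394 from limma) and of -2.81 for *Snora16a* (SE 1.06, adjusted p = 0.0492 from limma). In both, however, the value of cKO 2 lay within the WT range, and the 2 cKO libraries at 0 were those of lower estimated depth. Neither was called without any one of WT 1, WT 2, WT 3, cKO 1 or cKO 3, nor with WT counted as 1 sample, and *Snora16a* was listed at most at its smallest amount in any library.

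*Snora74a* had 0, 2.41 and 2.36 in WT and 27.9, 5.28 and 3.22 in cKO. The groups did not overlap, but 1 library carried most of the difference, which was not called (2.02, SE 0.78, adjusted p = 0.0541 from limma). *Snora81*, which lies in the translation factor gene *Eif4a2*, was listed in all 6 libraries, at 17.6, 53.4 and 28.9 in WT and at 15.8, 55.1 and 22.8 in cKO. Its groups overlapped over almost their whole range (log2 difference -0.15, SE 0.51, adjusted p = 0.816 from limma), and cKO 1, the highest library in the 7 separate members, was here the lowest. Of the other H/ACA members tested, *Snora23* (2.06), *Snora78* (2.30) and *Snora52* (1.87) had positive and *Snora3* (-1.85) a negative log2 difference, each with zeros in both groups and none called.

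*Snora15* and *Snora17* were the members listed in at least 2 libraries of 1 group and in none of the other. *Snora15*, in an intron of the chaperonin gene *Cct6a*, was at 73.3 in cKO 1 and 59.1 in cKO 2. *Snora17* was at 80.9 in cKO 1 and 27.1 in cKO 3. Both were at 0 in every WT library and did not reach the filter. No member was listed in 2 or more WT libraries and absent from cKO. *Snora30* (136 in WT 2 and 280 in cKO 2) and *Snora31* (77.0 in WT 3 and 83.3 in cKO 2) were each seen in 1 library of either genotype.

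The Cajal body RNAs differed from each other. *Scarna13* had 2.13, 0 and 1.42 in WT and 21.1, 9.15 and 9.92 in cKO, with all cKO values above all WT values. Its log2 difference was 2.77 (SE 0.47, adjusted p = 0.00195 from limma), the smallest adjusted p among the members, and it was called without cKO 1 (2.42, adjusted p = 0.0069) and with WT counted as 1 sample (2.62, adjusted p = 0.0298). *Scarna6*, in an intron of the autophagy gene *Atg16l1*, had 5.97, 2.02 and 1.98 in WT and 4.798, 2.31 and 9.70 in cKO, which overlapped (0.57, SE 0.48, adjusted p = 0.329 from limma).

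*Terc* was low in both genotypes and higher in cKO, at 1.65, 1.12 and 0.826 in WT and at 9.79, 3.77 and 4.09 in cKO. The lowest cKO value was above the highest WT value, and the log2 difference was 1.55 (SE 0.32, adjusted p = 0.00437 from limma). Without cKO 1 it was 1.18 (adjusted p = 0.00227). With WT counted as 1 sample the adjusted p from limma was 0.0609, and *Terc* was not called. Relative to the WT mean, cKO 1, 2 and 3 were at 8.16-, 3.14- and 3.41-fold. *Tert*, the gene for the protein subunit of telomerase, went the other way, from 2.62, 2.96 and 2.58 in WT to 0.792, 1.197 and 1.195 in cKO (log2 difference -0.86, adjusted p = 0.000643 from limma).

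The small RNAs and the genes that hold them often differed in the size of their differences. Of the 12 tested pairs, 7 had the same sign and 5 opposite signs, and the difference within a pair was not tested. A host on the same strand was found for 29 of the 36 members, in 28 different genes. Of these 28, all tested, 15 were higher in cKO, 1 was lower and 12 were not called, with a median log2 difference of 0.56. With the FPKM totals of the libraries made equal, 10 were higher and 7 lower, and under quantile normalization 8 and 4. Over all genes, the main scaling gave 35.8% higher and 29.8% lower. Equal totals gave 8.74% higher and 59.9% lower and quantile normalization 33.7% higher and 29.4% lower. With WT counted as 1 sample, 1 was higher (*Cct6a*) and 1 lower (*Srcap*). *Snhg1*, the noncoding host of *Snord22*, had a mean of 129 in WT and 153 in cKO (log2 difference 0.17, adjusted p = 0.573 from limma) beside 2.95 for *Snord22*. *Snhg10*, the host of *Scarna13*, had 6.75 and 8.69 (0.32, adjusted p = 0.0298 from limma) beside 2.77. With equal totals the difference of *Snhg1* was -0.39 and that of *Snhg10* -0.18, while both small RNAs kept positive differences, of 2.39 and 2.40, and stayed called.

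In other pairs the directions were the same or opposite. *Eif4a2* had nearly the same log2 difference as *Snora81* within it (-0.15 for both), and both were highest in cKO 2 and lowest in cKO 1 among the cKO libraries. *Rps2* was higher in cKO (0.89, adjusted p = 0.00529 from limma) and *Snora64* within it lower, and *Rps3* was higher (1.09, adjusted p = 0.00468 from limma) while *Snord15a* (1.41) and *Snord15b* (2.21) had differences in the same direction that were not called. *Srcap*, a chromatin remodeller that holds *Snora30*, was the 1 host called lower (-1.13, adjusted p = 0.000302 from limma). *Gas5*, the host of *Snord47*, had a mean of 43.2 in WT and 43.0 in cKO. Hosts of members had a median FPKM of 141 against 77.9 for the hosts of 74 rows at 0, a description over genes that also differ in the length of the RNA. An intronic fragment of a host transcript and a processed snoRNA are counted alike at these rows.

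**Figure D4:**
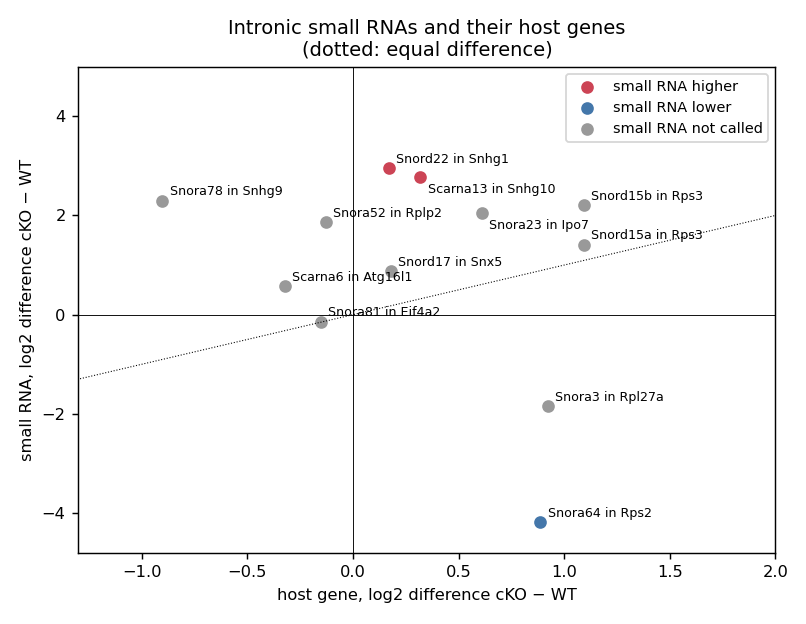
Each point is 1 of the 12 tested small RNAs with a tested host gene, with the host's log2 difference (cKO minus WT) on the x axis and the small RNA's on the y axis. The dotted line marks equal differences, and Snord22 and Scarna13 lie near 3 on the y axis with hosts at 0.17 and 0.32.

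In the main scaling, most of the genes tested for protein partners of the snoRNAs, RNase P and RNase MRP were higher in cKO. Their values are of mRNA, not of protein. All 4 genes for core proteins of the H/ACA particle were higher. They were *Nhp2* (37.8 to 101 in the group means, log2 difference 1.37), *Dkc1* of the pseudouridine synthase (0.83), *Nop10* (0.76) and *Gar1* (0.26). Of the 4 genes for core proteins of the C/D particle, *Nop58* (1.00), *Nhp2l1* (0.79) and *Nop56* (0.59) were higher. *Fbl*, the gene of the methyltransferase, was not called (-0.088, adjusted p = 0.222 from limma). Of 12 assembly factors, 8 were higher and 3 lower, with *Ruvbl1* at 1.11, *Nolc1* at 0.91 and *Shq1* at 0.65, and with *Tcof1*, a nucleolar protein, at -0.89.

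RNase P and RNase MRP share most protein subunits. All 10 tested genes for these subunits were higher in cKO, with a median log2 difference of 0.62. *Rpp30* rose from 18.1, 17.6 and 16.5 in WT to 37.8, 37.8 and 39.6 in cKO (log2 difference 1.10, adjusted p = 8.7e-05 from limma). Its 3 cKO values lay close together, unlike those of *Rmrp* and *Rpph1*. *Pop4* (0.72), *Rpp38* (0.68) and *Pop7* (0.55) had the next smallest adjusted p. *Rpp25* was near 0 in both groups and was not tested.

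Of 19 genes of small RNA processing and decay, 13 were higher, 3 lower and 3 not called. *Exosc9* (0.78), *Exosc8* (0.64) and *Exosc1* (0.55) of the RNA exosome and its helicase *Skiv2l2* (0.64) were among the higher, and *Exosc5* (-0.52), *Exosc4* (-0.35) and *Papd5* (-0.60), which adds short oligo(A) tails to small RNAs, were lower, the last 3 being named after their values were seen. Of the 7SK particle and its kinase, 3 of 7 genes were higher and 2 lower, with *Larp7* at 0.77, *Cdk9* at -0.96 and *Hexim1* at -0.64. Over all tested genes, 35.8% were higher and 29.8% lower, and the 7SK split was near these shares. Of 3 telomerase genes, *Tert* and *Tep1* (-0.63) were lower and *Wrap53* (0.40) higher.

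The calls in these lists depended on the scaling, while the 5 members called higher stayed so. Making the FPKM totals of the libraries equal moved the median of all genes from 0.039 to -0.45, and the count of list genes fell from 42 higher and 10 lower to 11 higher and 20 lower. The median turned negative for the assembly factors (0.29 to -0.23) and the processing genes (0.47 to -0.07) and kept its sign for the other 5 lists. Then 2 of 10 genes for RNase P and MRP proteins were higher and 1 lower. Of the genes for core proteins, 1 of 4 for H/ACA was higher and 1 lower, and 2 of 4 for C/D were higher and 1 lower. Under that scaling 5 members were still higher and 2 lower, with *Rmrp* at 2.65, *Rpph1* at 2.31, *Scarna13* at 2.40, *Snord22* at 2.39 and *Terc* at 1.17, and the split over all genes turned from 3693 higher and 3073 lower to 903 and 6182. With WT counted as 1 sample, 12 list genes were higher, *Rpp30*, *Nhp2* and *Ruvbl1* among them, and 3 lower, namely *Cdk9*, *Tcof1* and *Tert*.

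**Figure D5:**
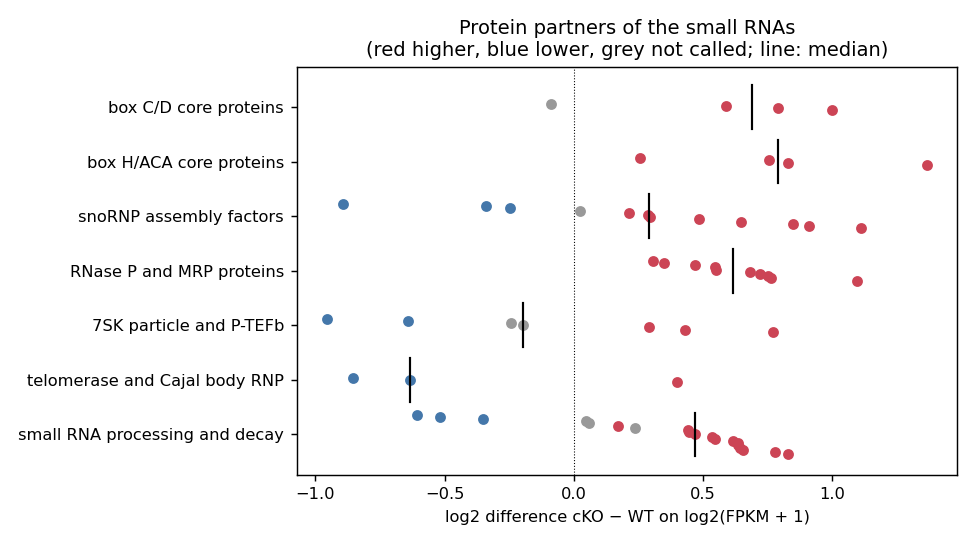
Each point is 1 tested gene of a list of protein partners, with its log2 difference (cKO minus WT) on the x axis and the lists on the y axis, and black lines give the list medians. The RNase P and MRP list lies to the right of 0 with a median of 0.62 in the main scaling, which equal FPKM totals lower to 0.19.

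Some other RNAs without long poly(A) tails were also higher in cKO. These were the histone mRNAs and the small nuclear RNA *Rnu12*, and the histone sum and *Rnu12* were highest in cKO 1. The ribosomal precursor *Rn45s* went the other way, at 6028 to 6118 in WT and at 0 in every cKO library. Of 56 replication-dependent histone genes tested, whose mRNAs end in a stem-loop, 55 were higher in cKO with a median log2 difference of 2.37, and 51 were higher and 1 lower with equal FPKM totals, or 19 and 0 with WT counted as 1 sample. Among all genes tested, 35.8% were higher and 29.8% lower in the main scaling, and 8.74% and 59.9% with equal FPKM totals. The summed FPKM of the histone rows was 693, 690 and 681 in WT and 5916, 1712 and 2204 in cKO. This sum was 8.60-, 2.49- and 3.20-fold of the WT mean in cKO 1, 2 and 3. The order cKO 1, cKO 3, cKO 2 was that of *Rmrp*, *Rpph1*, *Snord22*, *Scarna13* and *Terc*. *Snord15b* and *Snora74a* instead followed the order cKO 1, cKO 2, cKO 3. The estimated depth rose in the former order, at 13.16 M in cKO 1, 17.4 M in cKO 3 and 20.68 M in cKO 2. Its part in the shared order was not tested. Of 5 rows for small nuclear RNAs, *Rnu12* of the minor spliceosome was at 0, 0 and 28.3 in WT and at 74.9, 39.1 and 36.7 in cKO (log2 difference 3.97, adjusted p = 0.0258 from limma) and was not called without WT 1, WT 2, cKO 1 or cKO 3. *Rnu11* was listed in cKO 1 and cKO 2 alone, and the other 3 were at 0. Whether the recovery of RNA without poly(A) tails differed between the libraries was not tested, and its part in the values of the members was not tested. The paper reports raised proliferation of cKO DP thymocytes and higher expression of cell cycle genes. The part of the cell cycle in the values of these replication-dependent histone genes was not tested either.

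The marker genes of DP thymocytes were present in both groups, with 5 of 9 higher and 2 lower in cKO, against 1 higher and 4 lower with equal FPKM totals, 1 higher and 5 lower under quantile normalization and none called with WT counted as 1 sample. Their summed FPKM was 4338 to 4376 in WT and 5409 to 7003 in cKO. Of 5 markers of mature T cells, 4 were lower. Their sum was 112 to 115 in WT and 98.1 to 120 in cKO. Markers of red cells were low and higher in cKO, in both of the 2 tested, with a summed FPKM of 1.87 to 2.68 in WT and of 12.1 to 26.1 in cKO. The sum of the B cell markers was 22.6 to 24.0 in WT and 26.6 to 39.4 in cKO, with 1 of 4 tested and called higher. Of the myeloid markers 2 were tested and of the thymic epithelial ones 1, and none was called, with sums of at most 4.76. The part of any of these cells in the values of the members was not tested, and in sorted bulk samples more cells that hold an RNA and more RNA per cell cannot be told apart.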

How the data were processed

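RNA of sorted DP thymocytes was measured by mRNA-seq in 3 WT and 3 cKO libraries, grouped and numbered by the sample labels. The authors enriched poly(A) RNA with a directional library kit, removed ribosomal RNA, sequenced paired ends, trimmed and mapped the reads (Tophat, mm10) and deposited the FPKM values that Cufflinks gave for each gene symbol. The versions of Tophat and Cufflinks, the annotation and the strand setting of the counting are not given in the sources used here. The authors tested counts with DESeq2, which FPKM values do not allow, so limma was used.

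Here the FPKM values were divided by size factors (median of ratios, 1.00 to 1.01), and log2(FPKM + 1), a scale that understates changes of low genes, was fitted by genotype with limma 3.58.1 (lmFit, eBayes with a trend) in R 4.3.3 for the 10326 genes that reached an FPKM of 1 in 3 or more libraries. The p-values were adjusted over all of them by the Benjamini-Hochberg method at 0.05. The fit was tested on simulated data. Depth was estimated from the steps between low FPKM values of genes with transcripts over 1000 nucleotides, with an assumed fragment length of 200, and it limits the values of short RNAs most. Lengths came from RefSeq, sequences, hosts and neighbours from GENCODE mouse release 21, both on GRCm38. Hosts were genes that contain the member on the same strand. Python 3.11.15, numpy 2.4.6, pandas 2.3.3 and matplotlib 3.10.9 were used.

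Members, lists and tests were chosen with earlier results of these data known. The text names *Rmrp*, *Rpph1* and *Terc*, the members with the 8 highest means, the 6 of smallest adjusted p per direction, those listed in 2 or more libraries of 1 group only, their hosts, the core proteins, up to 4 genes a list by adjusted p, and *Nsrp1*. The others, such as *Snora26*, *Snord17*, *Xist* and *Parp2*, were named after their values were seen. A list of microRNA rows was empty, and *Nopchap1* and *Hbb-bt* were not found. Alternatives were other pseudocounts, filters, scalings, quantile normalization, no trend, a replicate block, WT as 1 sample and each library left out.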

Additional observations from a re-analysis of the deposited data

How the results depend on the processing

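The 5 members called higher (*Rmrp*, *Rpph1*, *Scarna13*, *Snord22* and *Terc*) numbered 5 to 7 when each library was left out, 3 with a filter at an FPKM of 10, which 2 of them did not reach in 3 libraries, 8 with the replicate block and 2 with WT counted as 1 sample. The 2 members called lower became 1 with a pseudocount of 0.1, with quantile normalization and without the trend, 0 without the filter and with WT as 1 sample, and 0 to 2 when each library was left out, with 2 remaining only without cKO 2. List genes called higher, 42 in all, became 11 with the same FPKM total, 10 with the same total of non-members and 12 with WT as 1 sample. List genes called lower, 10 in all, became 20, 19 and 3 in these settings and 6 with the filter at 10.

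The log2 difference of *Snora81* changed sign without WT 2 (0.25) and without cKO 1 (0.23), within -0.63 to 0.25 over the libraries left out, and that of *Snord15a* with WT as 1 sample (-0.66). Under the same FPKM total *Snhg1* (-0.39), *Snhg10* (-0.18) and *Snx5* (-0.37) changed sign. At an FPKM of 10 or more, a mean of 11.7 members was listed in WT and of 14 in cKO, against 16.3 and 18.7 above 0. The cause of these changes was not tested. The deviations of same-numbered WT and cKO libraries from their group means had correlations of -0.022, 0.038 and 0.031 across all tested genes. The WT deviations were small (median SD 0.0443), so these correlations cannot exclude a pairing. The labels do not say whether same-numbered libraries were paired. With the replicate block, *Snord15b* (adjusted p = 0.0145 from limma), *Snora23* (0.0203) and *Snora78* (0.0321) were called as well. Depth limits the short RNAs most, since their lowest listed values were the highest.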
